A study of Mus musculus with 564 samples.

Results

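Cis-regulatory elements (CREs) of 10 genes of glucose uptake and glycolysis were followed by ChIP-seq for H3K27ac (histone H3 acetylated at lysine 27, a mark of active promoters and enhancers) in mouse bone marrow-derived macrophages (BMDMs). The genes were the glucose transporters Slc2a1 and Slc2a6, the hexokinases Hk1, Hk2 and Hk3, the platelet-type phosphofructokinase Pfkp, its regulator Pfkfb3, the pyruvate kinase Pkm, the lactate dehydrogenase Ldha and the transcription factor subunit Hif1a. Their CREs were the elements whose centre lay within 25 kb of an annotated RefSeq transcription start of the gene in the mouse build mm10. This gave 62 of the 59190 CREs measured, between 4 for Hk3 and Ldha and 10 for Pfkfb3, and 58 of the 62 were nearer to the named gene than to any other. A CRE is named below by its gene and by the distance of its centre from the nearest start of that gene, with positive distances downstream. The promoter CRE of a gene is the strongest CRE with its centre within 1 kb of a start, and for Pkm, which had none, the nearest CRE, with its centre at 1134 bp. Distance alone tied an element to a gene, and what an element regulates was not measured.

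All cells were wild type BMDMs, primary macrophages grown from the marrow of male C57/BL6 mice aged 6 to 8 weeks. A pre-treatment of 1 h with DMSO, the vehicle, or with a single clinical kinase inhibitor (CKI; 58 compounds, each at a concentration of its own) came before the stimulus. The stimulus was 10 ng/mL lipopolysaccharide (LPS), the bacterial ligand of TLR4, or 10 ng/mL interleukin 4 (IL-4), with samples at 30 min, 1 h, 2 h and 4 h. Unstimulated samples (UT) were taken as the common start. Their titles place them at the start, while their treatment label names 4 h without stimulus. The DMSO series had 2 libraries in each of its 9 groups, and most CKIs had 1 library per stimulus and time. The labels do not say whether the DMSO replicates came from separate cultures, so p-values measure only the spread between these samples, which may be technical.

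Glucose enters the cell through facilitative transporters such as Slc2a1 and is trapped by hexokinases as glucose 6-phosphate. Phosphofructokinase commits it to glycolysis, and the fructose 2,6-bisphosphate made by Pfkfb3 is its strong activator. Pkm makes pyruvate, Ldha turns pyruvate into lactate, and Hif1a encodes the oxygen-regulated subunit of HIF-1, which binds the core ACGTG at several genes of this pathway. Macrophages activated with LPS are known for a shift to glycolysis and lactate output, and macrophages activated with IL-4 for greater use of oxidative metabolism. PI3K, AKT and mTOR form a kinase cascade that promotes glucose uptake and glycolysis in many cells.

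The DNA of the elements on which the results turn is shown first, read from the RefSeq mm10 assembly on the plus strand unless stated, in lower case with motif matches in capitals. The motifs searched on both strands were a STAT6-type palindrome (TTC and GAA with any 4 bases between them), an NF-kB motif (GGGA and TTCC with any 2 bases between them), an AP-1 motif (TGANTCA) and the hypoxia response core (ACGTG). In the central 1500 bases of all 59190 CREs these occurred in 34.8%, 6.47%, 45.3% and 55.4%, and in those of the 62 glycolysis CREs in 22, 4, 23 and 40. A match is a description of the letters and not evidence of binding. The intronic Slc2a1 element and the Hk3 element in an intron of Uimc1 are given with their STAT6-type matches because these were the CREs of Slc2a1 and Hk3 that changed most with IL-4. The Hk3 matches lie inside the CRE but outside its central 1500 bases.
Slc2a1 +3.4 kb, chr4:119111785-119111874: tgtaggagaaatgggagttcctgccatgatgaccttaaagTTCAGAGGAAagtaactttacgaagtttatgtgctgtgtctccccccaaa
Slc2a1 +3.4 kb, chr4:119112786-119112875: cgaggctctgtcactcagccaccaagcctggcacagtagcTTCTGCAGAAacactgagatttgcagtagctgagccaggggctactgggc
Hk3 −19.7 kb, chr13:55039677-55039766: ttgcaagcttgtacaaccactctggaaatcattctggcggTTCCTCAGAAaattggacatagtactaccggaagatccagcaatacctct
Hk3 −19.7 kb, chr13:55040138-55040227: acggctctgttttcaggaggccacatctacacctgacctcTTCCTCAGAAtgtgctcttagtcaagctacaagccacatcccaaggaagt

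The Slc2a6 promoter is given because it was the member promoter with the largest LPS rise, with its NF-kB matches in capitals, the first of them outside the central 1500 bases. The Hk2 and Pfkfb3 introns follow with AP-1 matches in capitals, as the strongest LPS-raised element of Hk2 and a strong one of Pfkfb3. The element with the largest LPS rise of all 62, Pfkfb3 −22.4 kb, is shown by its central 300 bases, which held none of the 4 motifs.
Slc2a6 promoter, chr2:27025625-27025714: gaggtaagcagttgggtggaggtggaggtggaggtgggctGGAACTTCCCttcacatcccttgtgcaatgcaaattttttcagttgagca
Slc2a6 promoter, chr2:27026999-27027088: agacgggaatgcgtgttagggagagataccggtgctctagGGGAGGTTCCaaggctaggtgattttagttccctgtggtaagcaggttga
Hk2 +21.2 kb, chr6:82753209-82753295: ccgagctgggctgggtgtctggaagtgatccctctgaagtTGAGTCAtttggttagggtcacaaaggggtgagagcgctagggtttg
Pfkfb3 +23.7 kb, chr2:11530340-11530473: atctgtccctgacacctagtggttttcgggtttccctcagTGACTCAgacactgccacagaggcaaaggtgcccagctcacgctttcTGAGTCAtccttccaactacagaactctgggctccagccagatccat
Pfkfb3 −22.4 kb, chr2:11524318-11524617: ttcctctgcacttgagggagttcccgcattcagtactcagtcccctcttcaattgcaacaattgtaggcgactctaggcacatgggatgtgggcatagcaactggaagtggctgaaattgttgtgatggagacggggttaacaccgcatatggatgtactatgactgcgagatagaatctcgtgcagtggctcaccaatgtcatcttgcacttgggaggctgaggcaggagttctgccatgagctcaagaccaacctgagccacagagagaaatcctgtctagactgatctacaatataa

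At the start sites the 250 bases upstream were searched. Of the 14 RefSeq promoters of the 10 genes 8 held ACGTG there, against 16.6% of all 32851 promoters. The counts for the STAT6-type, NF-kB and AP-1 letters were 3, 0 and 0 of 14, against 5.85%, 1.21% and 6.75% of all promoters. The upstream 250 bases of Hk2 (minus strand) and the stretches around single cores of Slc2a1, Ldha and Hif1a are given with the core in capitals.
Hk2, chr6:82774455-82774704: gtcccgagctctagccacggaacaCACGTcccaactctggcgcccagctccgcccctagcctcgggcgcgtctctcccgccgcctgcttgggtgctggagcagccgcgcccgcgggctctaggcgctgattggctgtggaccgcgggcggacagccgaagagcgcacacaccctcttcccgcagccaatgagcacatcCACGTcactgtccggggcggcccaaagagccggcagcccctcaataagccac
Slc2a1, chr4:119108698-119108724: tcccgccccggACGTGctccccaggcc
Ldha, chr7:46845648-46845674: gtgtcgcagcaCACGTGgagccactct
Ldha, chr7:46845745-46845771: ggcccagcctaCACGTGggttcccgca
Hif1a, chr12:73907721-73907747: acacagacaagCACGTGagcggggcag

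The series held 564 libraries, 18 with DMSO and 546 with CKIs. Values are normalised read counts per CRE. Estimated reads in CREs were 2346011 to 5732293 in the 16 DMSO libraries where the value of 1 read could be read from the table, and 172611 to 6611769 in CKI libraries, with a median of 1863710. The contrast between the strongest and the weakest 10% of CREs had a median of 75.1 in DMSO and 17.56 in CKI libraries, so DMSO and CKI libraries differ in more than the compound. Of 9 macrophage markers 6 could be tested at a promoter CRE, and Adgre1, Csf1r and Cd68 could not. A gene was left out if no CRE had its centre within 1 kb of a start or if values there were low. LPS lowered 4 of them, among them Itgam (−2.21 on the log2 scale, and −1.80 after IL-4), and Cd14 had 0.94 with no call. The 1 neutrophil marker tested of 5, S100a8, had 0.87 after LPS with no call. No T cell, B cell or erythroid marker could be tested, for either of these reasons. The fibroblast marker Pdgfrb, the 1 of 4 that could be tested, rose by 3.30 after 2 h of LPS, and its part in the results below was not tested.

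The first comparison asked where LPS changed acetylation at these genes in vehicle-treated cells. The largest rises lay at distal elements of Pfkfb3, Hif1a, Hk2, Hk1 and Slc2a6, and the Slc2a6 promoter rose most among the promoters, while elements of Ldha and Pkm moved down or not at all. A CRE was called when the test over all 4 times passed an adjusted p of 0.01 and the log2 difference from UT was over 1 at some time, on the log2(value + 5) scale, which understates changes of weak CREs. Of 58 CREs tested, 25 were called higher and 7 lower at their largest difference. Over all 50697 CREs tested these calls took 29% and 24.6%, with the higher share among the members above the background and the lower share below it. Members were chosen with earlier results of these data known and lie several to a gene. The shares are therefore a description and not a test. The median largest difference was 0.93 over the members and 0.37 over all CREs. At single times, with an adjusted p of 0.05 and a difference over 0.5, 19, 23, 25 and 29 members were higher and 13, 9, 6 and 5 lower after 30 min, 1 h, 2 h and 4 h. The background shares at these times were 25.9%, 29%, 29.5% and 29.2% higher and 23.2%, 24.4%, 28.9% and 24.7% lower.

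**Figure D1:**
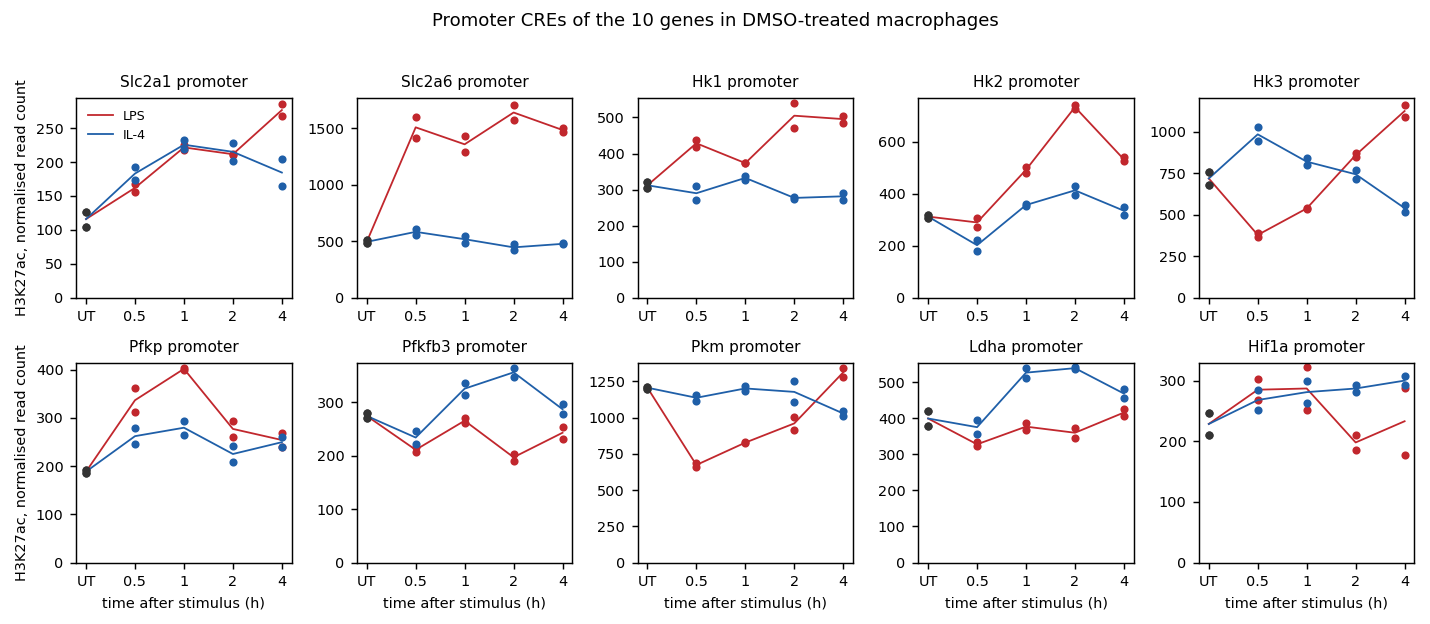
Promoter CREs of the 10 genes in DMSO-treated macrophages: normalised read count against time for LPS (red) and IL-4 (blue), with each point 1 library and lines through the group means. The Slc2a6 promoter stands between 1287 and 1700 in all LPS libraries against 482 and 507 in the UT libraries, and the Ldha and Hif1a promoters stay near their UT level after LPS.

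Slc2a6, a lysosomal member of the transporter family that is known as an LPS-inducible gene in macrophages, had the largest rise of the promoters. Its promoter CRE (chr2:27024880-27029687) held 507 and 482 in the UT libraries, 1414 and 1599 after 30 min, 1287 and 1426 after 1 h, 1700 and 1575 after 2 h and 1466 and 1500 after 4 h of LPS. All LPS libraries were above both UT libraries and the level was reached by 30 min. The log2 differences were 1.60, 1.45, 1.72 and 1.58 (SE 0.09, adjusted p = 1.4e-18). The element 2.8 kb upstream rose from 33 and 14 to 125 and 95 after 1 h and 113 and 102 after 4 h, a difference of 2.17 at its largest, and one 8.8 kb downstream, in an intron of the neighbour Cacfd1, rose by up to 1.59. These were the 3 called of 6 Slc2a6 CREs tested.

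Slc2a1, the main glucose transporter of most cells, also rose at its promoter (chr4:119107764-119110030). Libraries held 105 and 127 in UT, 168 and 156 after 30 min, 218 and 225 after 1 h, 211 and 212 after 2 h and 268 and 285 after 4 h of LPS. No LPS library reached down to the UT level, and the largest difference was 1.22 after 4 h (SE 0.16, adjusted p = 2.3e-07). A strong intronic element 17.4 kb downstream rose first and then returned most of the way, from 518 and 481 to 1071 and 1238 after 30 min and 838 and 657 after 4 h (1.20 and 0.57). The weak element at −6.3 kb was called at 1.52 after 30 min but not without the second 30 min LPS library (adjusted p = 0.0107). At the +3.4 kb element LPS libraries spread from 16 to 61 against 22 and 28 in UT. The largest difference was 1.06 after 4 h (SE 0.37), and the time course was not called. Whether it was called depended on the second 2 h LPS library.

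The 3 hexokinases differed in where acetylation moved. At Hk1, the form expressed in most tissues, the promoter held 320 and 304 in UT and 505 and 486 after 4 h (0.66), past the test at 2 h and 4 h but under the size needed for a call. The called changes lay in its introns. The +13.5 kb element (chr10:62325433-62328386) held 110 and 108 in UT, 71 and 99 after 30 min, 271 and 264 after 1 h, 560 and 591 after 2 h and 579 and 527 after 4 h. It was not above UT at 30 min and stood far above it from 1 h on, with a largest difference of 2.35 after 2 h (SE 0.15, adjusted p = 1.1e-18). Its neighbour at +16.9 kb rose from the first time point, by 1.10 after 30 min and 1.89 after 4 h.

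Hk2, the inducible hexokinase bound to mitochondria, rose at its promoter (chr6:82772660-82775428) with a peak at 2 h. Libraries held 306 and 319 in UT, 274 and 306 after 30 min, 481 and 504 after 1 h, 727 and 740 after 2 h and 540 and 525 after 4 h, a difference of 1.22 at 2 h (SE 0.12, adjusted p = 3.2e-12). The intronic +21.2 kb element (chr6:82752350-82754113) with the AP-1 match shown above rose from 34 and 36 to 272 and 308 after 2 h (2.88, SE 0.21, adjusted p = 5.7e-13). Other elements of the same gene went the other way. The intergenic −23.3 kb element (chr6:82796974-82798500) held 392 and 411 in UT and 104 and 178 after 30 min, and stayed at 222 and 194 after 4 h (−1.52 and −0.94). The strong intronic +10.2 kb element fell first and rose later, from 504 and 510 to 223 and 238 after 30 min and 877 and 1001 after 2 h (−1.12 and 0.88).

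Hk3, a hexokinase found mainly in myeloid cells, fell first and rose later at its promoter (chr13:55019418-55025198). Libraries held 757 and 681 in UT, 391 and 367 after 30 min, 544 and 533 after 1 h, 871 and 849 after 2 h and 1163 and 1088 after 4 h. The first LPS libraries were below and the last above both UT libraries, with differences of −0.91 and 0.64 that each passed the test at its time but not the size for a call. Scaling by quantiles or by the median of ratios took the 30 min difference to −1.08 and −1.02, which were called. The element in Uimc1 at −19.7 kb fell from 157 and 163 to 53 and 94 after 30 min and was back at 157 and 151 after 4 h (−1.12 and −0.05). The intronic +4.1 kb element rose late, from 48 and 34 to 167 and 148 after 4 h (1.84, SE 0.25, adjusted p = 1e-07).

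**Figure D2:**
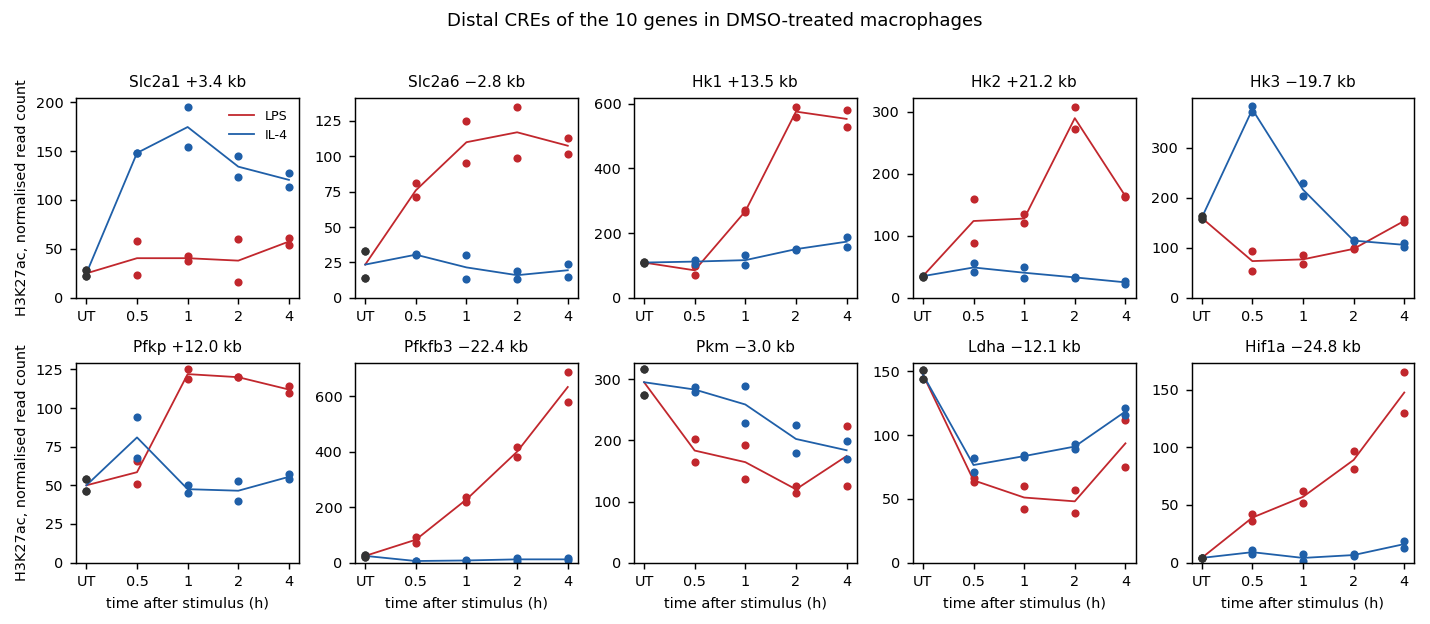
One distal CRE of each gene in DMSO-treated macrophages: normalised read count against time for LPS (red) and IL-4 (blue), with each point 1 library and lines through the group means. Pfkfb3 −22.4 kb climbs from 29 and 19 to 687 and 581 after LPS, while Slc2a1 +3.4 kb stands at 113 to 195 after IL-4 and at 16 to 61 after LPS.

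At the phosphofructokinase step the promoter of Pfkp (chr13:6647034-6649946) rose early, from 191 and 186 in UT to 361 and 312 after 30 min and 403 and 400 after 1 h, and stood at 240 and 268 after 4 h. The difference of 1.07 after 1 h (SE 0.14, adjusted p = 3.2e-07) became 0.95, under the size for a call, when libraries were scaled by the median of ratios. Of the 6 Pfkp CREs 5 were called higher, among them +12.0 kb (1.21 after 1 h). The call at +15.5 kb (1.05 after 30 min) was lost without the second 30 min LPS library (0.86) or without the first UT library (0.89).

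Pfkfb3 had the largest LPS differences of all member CREs. It has an upstream and a downstream start, and the CRE at the upstream start (its promoter CRE, chr2:11552471-11554843) held 270 and 279 in UT and 232 and 254 after 4 h (−0.17), with no call. The CRE at the downstream start (chr2:11500539-11504064) held 186 and 192 in UT, 157 and 103 after 30 min, 252 and 233 after 1 h, 339 and 398 after 2 h and 503 and 640 after 4 h. It fell at first and then rose by 1.56 after 4 h (SE 0.16, adjusted p = 7e-13).

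Some of the elements between the starts rose far more. Others there were not called, with largest differences of 0.44 at +18.3 kb, 0.92 at +11.1 kb, −0.97 at +9.4 kb and −0.34 at +5.6 kb. At −22.4 kb (chr2:11523204-11525732) libraries held 29 and 19 in UT, 71 and 94 after 30 min, 218 and 238 after 1 h, 418 and 383 after 2 h and 687 and 581 after 4 h. Each time point lay above the one before, and the difference reached 4.48 (SE 0.18, adjusted p = 7e-21). The +23.7 kb element (chr2:11529429-11531008) rose from 37 and 24 to 568 and 459 (3.89), and the −10.7 kb element from 33 and 31 to 276 and 303 (2.99).

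Pkm, which makes pyruvate, was acetylated over a broad promoter CRE (chr9:59655189-59661534) that fell and recovered. Libraries held 1214 and 1200 in UT, 660 and 687 after 30 min, 829 and 827 after 1 h, 918 and 1003 after 2 h and 1344 and 1282 after 4 h. The first 3 LPS times lay below both UT libraries, with differences of −0.84 and −0.54 past the test at 30 min and 1 h and no call over the time course. Quantile scaling made it −1.11, a call. The −3.0 kb element was called lower, from 317 and 274 to 114 and 126 after 2 h (−1.26).

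Ldha was the gene with the most lowered elements. Its promoter (chr7:46844939-46847920) held 379 and 419 in UT and between 322 and 426 in the LPS libraries, and its time course did not pass (adjusted p = 0.1). Its 3 upstream elements were all called lower, with largest differences of −1.55 at −12.1 kb, −1.42 at −14.8 kb and −1.21 at −7.1 kb. The −12.1 kb element held 144 and 151 in UT and 57 and 39 after 2 h, with no overlap.

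Hif1a showed the same split between promoter and distal elements as Pfkfb3. Its promoter CRE (chr12:73906821-73908743) held 211 and 246 in UT and 178 and 288 after 4 h, and was not called (adjusted p = 0.028). The intergenic −24.8 kb element (chr12:73875735-73877334) was almost bare in UT at 4 and 4, and held 36 and 42 after 30 min, 62 and 52 after 1 h, 81 and 97 after 2 h and 165 and 130 after 4 h. Its difference of 4.07 (SE 0.26, adjusted p = 1e-14) ranks behind that of Pfkfb3 −22.4 kb and rests on UT values near 0. The stronger −20.2 kb element rose from 144 and 138 to 460 and 477 (1.70), and the CRE at the upstream start rose only early, from 22 and 21 to 63 and 64 after 30 min and 33 and 21 after 4 h. Of the 7 Hif1a CREs 5 were called higher and none lower.

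**Figure D3:**
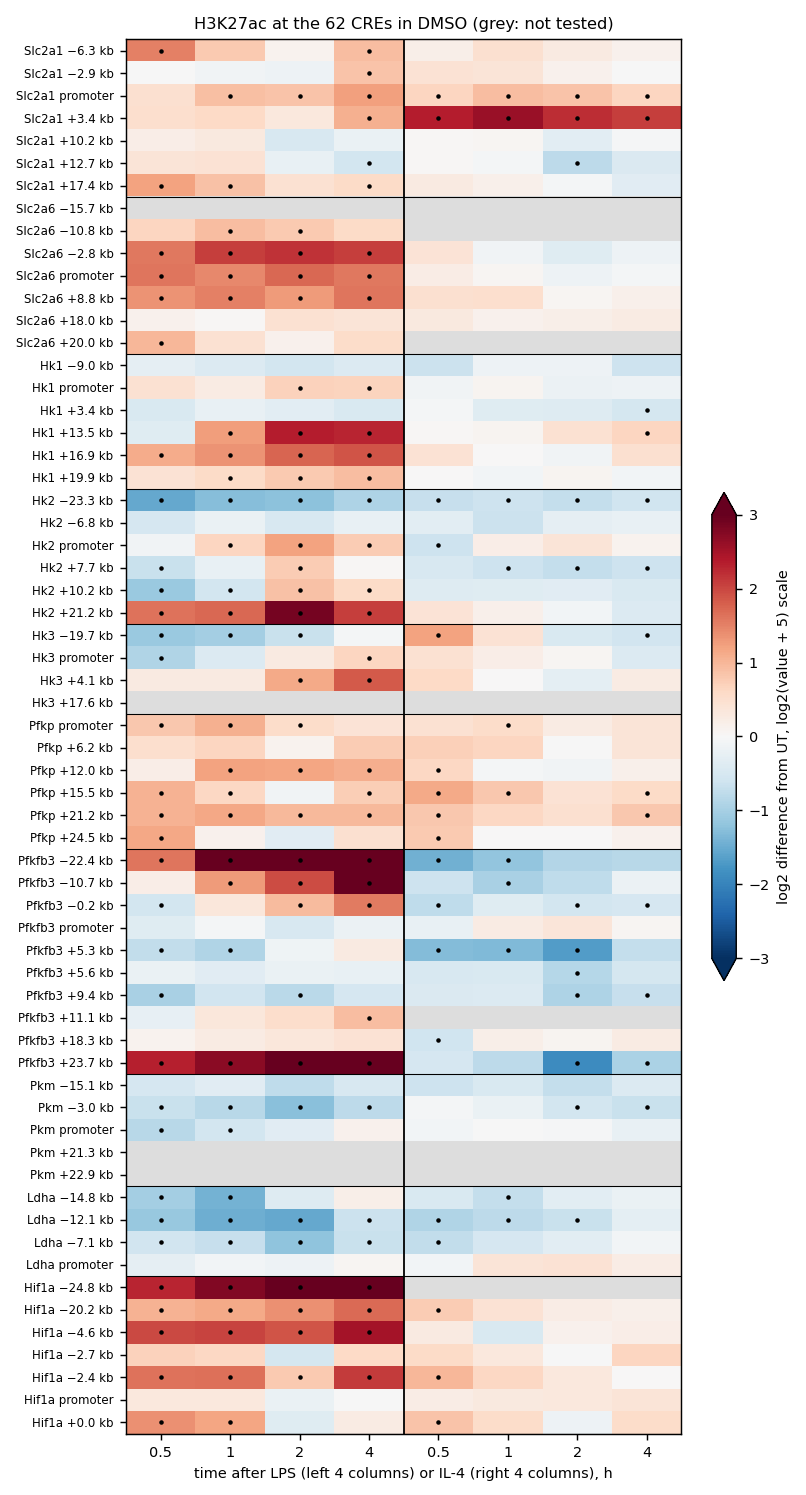
Log2 difference from UT for the 62 CREs (rows, grouped by gene) at 4 times of LPS and 4 of IL-4 (columns) in DMSO-treated macrophages, with colours cut at −3 and 3, dots where the difference passed the test at that time, and grey where the CRE was not tested. The reddest rows after LPS are Pfkfb3 −22.4 kb (4.48) and Hif1a −24.8 kb (4.07), and the distal Ldha rows are mostly blue.

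Other genes of the pathway were read at their promoter CREs from lists chosen for this report. Of 21 other glycolysis genes 19 could be tested after LPS. Of these 1 rose, the enolase Eno2 (1.19), and 3 fell, among them the aldolase Aldoc (−1.22) and the pyruvate dehydrogenase kinase Pdk1 (−1.54). Of 12 tested HIF-1 pathway and target genes none rose and 4 fell, namely Epas1 (−1.59), Vegfa (−1.09), Bnip3 (−1.54) and Ndrg1 (−2.13). The same calls took 29% (higher) and 24.6% (lower) of all CREs, and no list is read as more than its count. In the pentose phosphate list Pgd fell (−1.28) among 6 tested. In the tricarboxylic acid cycle list Ogdh rose (1.19) and Fh1 fell (−1.11) among 11. The median largest differences of the 4 lists were −0.45, −0.65, −0.46 and 0.42. That of the 10 member promoters, of which 4 rose and none fell, was 0.50. All CREs tested, distal ones included, had a median of 0.37.

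The second comparison asked the same for IL-4, against the same UT libraries as LPS. The clearest change was at 1 intronic element of Slc2a1, and none of the 10 promoter CREs was called. Of 54 CREs tested, 3 were called higher and 2 lower, against 13.6% and 11% of all 47018. At single times 10, 4, 2 and 5 were higher and 8, 7, 10 and 8 lower, with backgrounds of 19.1%, 17.8%, 17.1% and 16.6% higher and 9.29%, 14.7%, 20% and 15.7% lower. The median largest difference was 0.07 over the members and 0.21 over all CREs.

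The Slc2a1 element at +3.4 kb (chr4:119111342-119112950) held 22 and 28 in UT, 148 and 148 after 30 min, 154 and 195 after 1 h, 145 and 123 after 2 h and 128 and 113 after 4 h of IL-4. All IL-4 libraries stood far above both UT libraries. The largest difference was 2.58 after 1 h (SE 0.18, adjusted p = 5.4e-17). The Slc2a1 promoter held 192 and 174 after 30 min and 232 and 219 after 1 h, with differences of 0.64, 0.94, 0.87 and 0.65 that passed the test at each time. Its call was missed at the size of 1 and made without the second UT library (1.07, adjusted p = 2.67e-05).

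Hk3 −19.7 kb rose at once and then fell, from 157 and 163 in UT to 371 and 383 after 30 min, 203 and 230 after 1 h, 114 and 115 after 2 h and 110 and 102 after 4 h. The difference went from 1.21 (SE 0.14, adjusted p = 2.4e-15 for the time course) to −0.57, and both passed at their time. The same element fell after 30 min of LPS. Pfkp +15.5 kb rose from 60 and 76 to 187 and 127 after 30 min (1.13), a call that was lost without the first of these libraries (0.86) or without the first UT library (0.97).

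Both elements called lower belonged to Pfkfb3. At +23.7 kb libraries held 37 and 24 in UT and 4 and 5 after 2 h (−1.88), and the call was lost without the first UT library (−1.61, adjusted p = 0.0107). At +5.3 kb they held 74 and 65 in UT and 13 and 25 after 2 h (−1.68, SE 0.32, adjusted p = 0.0001). Pfkfb3 −22.4 kb held 29 and 19 in UT and between 5 and 17 after IL-4, not called over the time course (adjusted p = 0.017). The Hk2 promoter was below UT after 30 min of IL-4, at 224 and 181 against 306 and 319 (−0.62), and past the test at that time only. The Ldha promoter held 540 and 512 after 1 h of IL-4 against 379 and 419 (0.40), under the size for either rule. The most changed IL-4 elements of Hk1, Hif1a, Pkm and Slc2a6 were weak and not called. They were Hk1 −9.0 kb (−0.65), Hif1a −2.4 kb (1.01), Pkm −15.1 kb (−0.71) and Slc2a6 +8.8 kb (0.49). That of Hk2, +7.7 kb (−0.73), was not called either. At Ldha it was −12.1 kb (−0.91), under the size for a call. Scaling by quantiles (−1.10) or by the median of ratios (−1.03) made it a call. Ldha −14.8 kb (−0.71), Ldha −7.1 kb (−0.73) and Pkm −3.0 kb (−0.67) were also lower, without a call.

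The direct contrast of LPS with IL-4 at matched times, which takes no difference from UT although the UT libraries enter the fit and its estimate of the spread, had 57 members tested. LPS was called higher at 23 and lower at 3, against 29.2% and 29.2% of all 50587 CREs. At single times 16, 20, 26 and 29 members were higher after LPS and 8, 8, 9 and 2 lower, with backgrounds of 20.2%, 25.9%, 29.1% and 28.3% higher and 28.6%, 27.1%, 30.3% and 28.1% lower. The median largest difference was 0.67 over the members and −0.34 over all CREs.

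The widest gaps were at Pfkfb3, with 5.30 at −22.4 kb after 4 h (SE 0.28) and 5.19 at +23.7 kb after 2 h (SE 0.27). Pfkfb3 −10.7 kb (3.16), Hif1a −24.8 kb (3.03), Hk2 +21.2 kb (2.95), Slc2a6 −2.8 kb (2.54), Hif1a −4.6 kb (2.50), Hif1a −2.4 kb (2.08), the Pfkfb3 downstream start (2.07) and Hk1 +13.5 kb (1.90) followed. The 3 called the other way were Slc2a1 +3.4 kb (−1.97, SE 0.31, after 1 h), Hk3 −19.7 kb (−2.33, SE 0.19, after 30 min) and the Hk3 promoter (−1.37 after 30 min). At the Hk3 promoter the sign turned with time, to 1.05 after 4 h. The Slc2a6 promoter was the 1 promoter called higher after LPS than after IL-4 (1.87 after 2 h). In the other lists LPS was called lower than IL-4 at Gpi1 (−1.10), Aldoc, Pfkfb4 (−1.49) and Pdk1, among other glycolysis genes, with Eno2 higher (1.50), and lower at Epas1 (−2.22), Egln1, Bnip3 and Ndrg1 in the HIF-1 list.

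The next comparison followed the same stimuli across the 58 CKIs, with each compound set against its own UT level. After LPS 16, 18, 19 and 20 of 62 CREs were higher at the 4 times and 15, 8, 7 and 5 lower. The backgrounds were 20.8%, 21.5%, 23.6% and 21.1% higher and 18.9%, 19.5%, 23.1% and 21% lower. Of the members higher in DMSO at a time, 14 of 19, 18 of 23, 18 of 25 and 20 of 29 were also called higher across CKIs. Of those lower in DMSO 12 of 13, 7 of 9, 5 of 6 and 4 of 5 were also called lower, and none was called the other way. Over all CREs called in DMSO these shares were 70%, 73.9%, 77.8% and 77.2% higher and 80.3%, 81.5%, 83.1% and 84.4% lower. After IL-4 3, 2, 2 and 2 were higher and 4, 4, 9 and 3 lower (backgrounds 11.9%, 11.3%, 9.69% and 9.56% higher, 3.77%, 7.07%, 13.5% and 11.3% lower). Of the members higher in DMSO after IL-4, 3 of 10, 2 of 4, 2 of 2 and 2 of 5 were called higher across CKIs, and of those lower 3 of 8, 2 of 7, 5 of 10 and 2 of 8 were called lower. Over all CREs these shares were 66.7%, 67%, 61.6% and 62% higher and 39.7%, 47.1%, 64.2% and 68.5% lower.

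**Figure D4:**
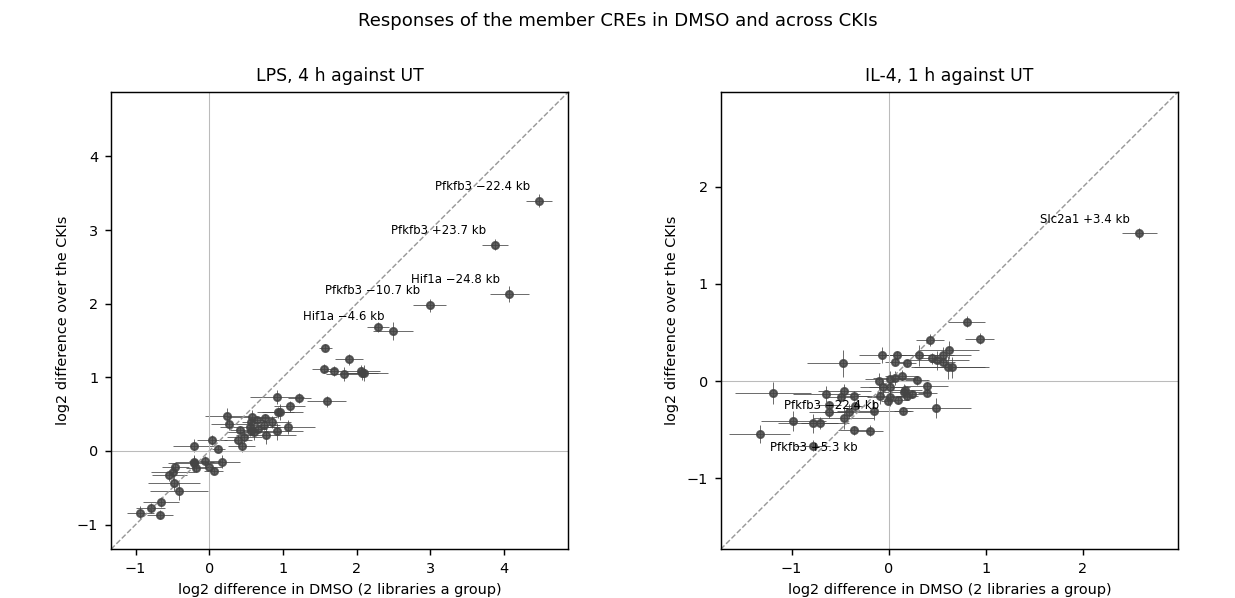
Log2 difference from UT in DMSO (horizontal) against that across the CKIs (vertical), 1 point per CRE with SE bars and the dashed line of equality, after 4 h of LPS (left) and 1 h of IL-4 (right). Pfkfb3 −22.4 kb lies at 4.48 and 3.40 after LPS, and Slc2a1 +3.4 kb at 2.58 and 1.52 after IL-4, both under the line.

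Pfkfb3 −22.4 kb rose by 1.37, 2.07, 2.76 and 3.40 across CKIs and was above UT in 56 of 58, 57 of 57, 55 of 55 and 55 of 55 compounds. Single compounds ranged after 4 h from 1.69 with the p38 inhibitor Talmapimod to 4.85 with ONO4059analogue (SD 0.71). The CRE at its downstream start fell by 0.60 on the log2 scale after 30 min and rose by 1.12 after 4 h. The Slc2a6 promoter rose by 1.47, 1.42, 1.52 and 1.40 and was higher than UT in every compound measured at each time.

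Among the hexokinases, Hk1 +13.5 kb differed from UT by −0.11, 0.74, 1.69 and 1.68, the last 3 past the test. The Hk2 promoter passed at 2 h alone (0.79), and Hk2 +21.2 kb rose at each time, by 1.63 at most. Hk2 −23.3 kb fell by 1.17 after 30 min, lower than UT in all 58 compounds, and its 4 h difference was −0.84. The Hk3 promoter fell by 0.62 after 30 min and stood at 0.42 after 4 h, under the size for a call.

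The Pkm promoter fell by 0.99 after 30 min and 0.70 after 1 h, and the Ldha promoter, not called in DMSO, fell by 0.59 after 30 min and 0.55 after 2 h. Ldha −12.1 kb fell at each time, by 1.25 at most. The Hif1a promoter passed as lower at 2 h alone (−0.56), while Hif1a −24.8 kb rose by 1.04, 1.21, 1.80 and 2.14 and was above UT in 49 of 58 compounds at 30 min and 54 of 55 at 4 h. The Slc2a1 promoter passed at 4 h alone (0.72). Whether DMSO and CKI responses differ was not tested, and depth and contrast differ between the libraries.

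After IL-4 the Slc2a1 +3.4 kb element rose by 1.44, 1.52, 1.37 and 1.14 (SE 0.06) and was above UT in 58 of 58, 58 of 58, 54 of 56 and 55 of 55 compounds. After LPS it differed by 0.17 to 0.32 and was not called. Hk3 −19.7 kb rose by 0.82 after 30 min of IL-4, in all 58 compounds, and stood at −0.47 after 4 h. Pfkp +15.5 kb rose by 0.79 after 30 min, Pfkfb3 +5.3 kb fell by up to 0.66, and Pkm −3.0 kb fell by up to 0.81 after 4 h.

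The main inhibitor comparison set the 5 dual PI3K/mTOR or mTOR inhibitors (AZD2014, Apitolisib, BGT226, Omipalisib, PF04691502) against 49 CKIs of other classes. The PI3K isoform inhibitors AZD8186 and TG100115 and the AKT inhibitors MK2206 and GSK2110183 were kept together as 1 separate class in the fit. Of the 5, AZD2014 was chosen by the study for the phosphofructokinase PFKP, a gene described here, and Apitolisib for JAK1. Each compound gave 1 value per CRE, its log2 level or its log2 response to the stimulus, centred on the mean of all CKIs at each time and averaged over times. Doses differed between compounds, so members of the class are given side by side and were not tested against each other. Few glycolysis elements were called, and those called were at most 0.69 apart on the log2 scale and depended on 2 or 3 of the 5 compounds. In simulated data the test of the LPS level found 23% of set shifts of 0.5 and 76% of shifts of 1. Few calls therefore do not show that few elements differed.

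After LPS the level with PI3K/mTOR inhibitors passed an adjusted p of 0.05 as lower at 3 of 62 CREs and as higher at none, against 1.41% lower and 0.6% higher of all CREs. After IL-4 it was higher at 2 and lower at 1 (0.0896% and 0.318%). In UT it was lower at 1 and higher at none (1.13% and 0.387%). For the response to LPS 1 was lower and none higher (0.157% and 0.51%). For the response to IL-4 limma called none in either direction, with 4 at an unadjusted p under 0.05 and backgrounds of 0.00845% higher and 0% lower. Counts of 0 to 3 among 62 CREs of 10 genes allow no reading against these backgrounds. The number at an unadjusted p under 0.05 was 10, 17, 9, 13 and 4 of 62 for the 5 measures in the order UT, LPS and IL-4 level and LPS and IL-4 response, against 12%, 27.2%, 9.49%, 16.5% and 8.53% of all CREs.

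**Figure D5:**
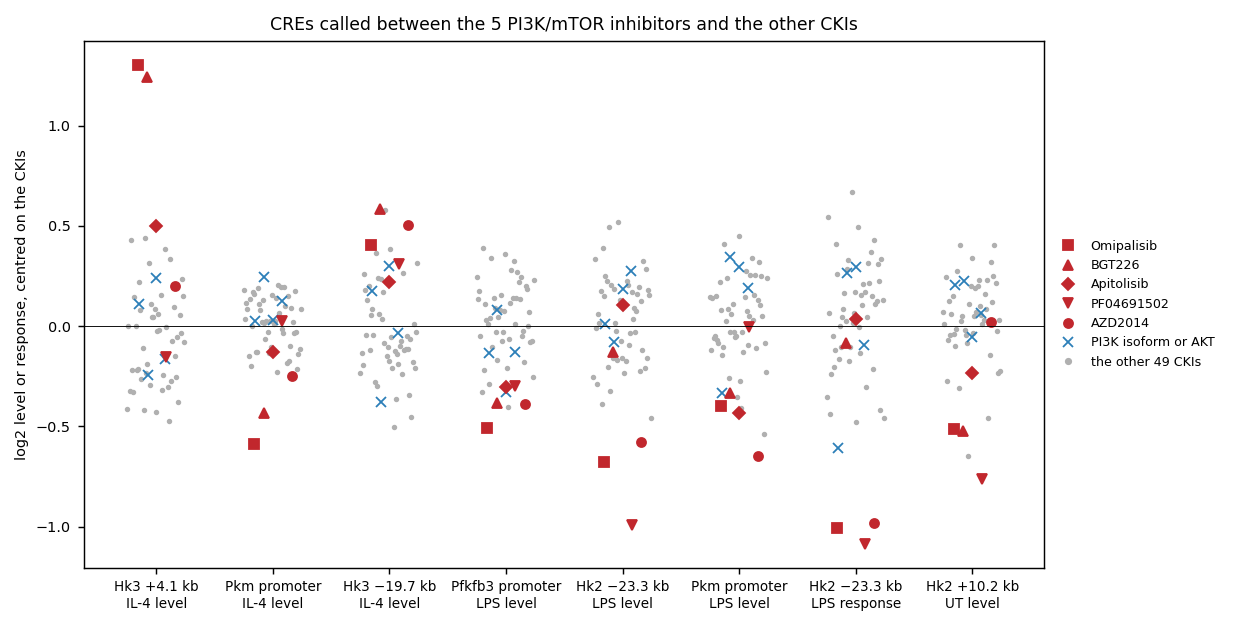
Level or response of single CKIs at 8 combinations of CRE and measure (columns), as a log2 value centred on all CKIs, with the 5 PI3K/mTOR inhibitors in red by marker, PI3K isoform and AKT inhibitors as blue crosses and the 49 others in grey. At the Pfkfb3 promoter after LPS the 5 red points lie between −0.51 and −0.30, and at Hk2 −23.3 kb after LPS 3 of the 5 levels lie at or below −0.58 while 2 lie among the grey points.

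The Pfkfb3 promoter CRE was the most uniform. Its centred level after LPS was −0.39 with AZD2014, −0.30 with Apitolisib, −0.38 with BGT226, −0.51 with Omipalisib and −0.30 with PF04691502. All 5 lay below the mean of the other CKIs, and Omipalisib was the lowest of 58. The class difference was −0.42 (SE 0.09, adjusted p = 0.00961), with a mean of −0.38 ± 0.08 (SD, n = 5) against 0.05 ± 0.18 (SD, n = 49). The isoform inhibitors AZD8186 and TG100115 were at −0.13 each and the AKT inhibitors MK2206 and GSK2110183 at −0.33 and 0.08. The call was lost without AZD2014 (adjusted p = 0.0722) or Omipalisib (0.11) and with library contrast in the fit (0.0621).

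The Pkm promoter was lower after LPS by 0.39 (difference −0.39, SE 0.11, adjusted p = 0.0379) and after IL-4 (−0.29, SE 0.07, adjusted p = 0.0374). After LPS single values were −0.65 with AZD2014, the lowest of 58, −0.43 with Apitolisib, −0.33 with BGT226, −0.40 with Omipalisib and −0.00 with PF04691502. After IL-4 Omipalisib was lowest of 58 (−0.59), BGT226 was at −0.43 and PF04691502 at 0.03. Without AZD2014, Omipalisib or Apitolisib the LPS call was lost (adjusted p = 0.201, 0.201 and 0.0545), as it was with the column run of the deposited table (0.0824) or library contrast (0.235) in the fit and with quantile scaling (0.0892). Without AZD2014, BGT226 or Omipalisib the IL-4 call was lost (0.0632, 0.542 and 0.947), as it was with quantile scaling (0.0535). AKT inhibitors were above the mean in both (0.29 and 0.35 after LPS).

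Hk2 was lower at 2 elements, in different measures. At −23.3 kb, the element that LPS lowers, the level after LPS was −0.58 with AZD2014, −0.68 with Omipalisib and −0.99 with PF04691502, and 0.10 with Apitolisib and −0.13 with BGT226. The class difference was −0.49 (SE 0.12, adjusted p = 0.0211) and was lost without any 1 of the first 3 (0.117, 0.184 and 0.0792) and with library contrast in the fit (0.0595). Its response to LPS was also lower, at −0.98, −1.01 and −1.08 against 0.04 and −0.08 in the same compounds (difference −0.69, SE 0.15, adjusted p = 0.016). That call was lost without AZD2014 (0.0728), Omipalisib (0.193) or PF04691502 (0.111) and with contrast in the fit (0.0694). In UT the +10.2 kb intron was lower (−0.43, SE 0.11, adjusted p = 0.0219), with PF04691502 lowest of 58 at −0.76 and AZD2014 at 0.02. This call was lost without BGT226 (0.113), Omipalisib (0.177) or PF04691502 (0.247) and without the libraries whose titles end in b (0.0534). The Hk2 promoter after LPS lay between −0.55 and −0.18 in all 5, below the mean of the others, and its difference of −0.37 missed the threshold (adjusted p = 0.0545).

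Hk3 was higher after IL-4. At +4.1 kb values were 0.20 with AZD2014, 0.50 with Apitolisib, 1.24 with BGT226, 1.30 with Omipalisib, the highest of 58, and −0.16 with PF04691502 (difference 0.68, SE 0.13, adjusted p = 0.011). Without BGT226 or Omipalisib the adjusted p was 0.424 and 0.849. At −19.7 kb all 5 were above the mean of the others, from 0.22 to 0.58 (difference 0.45, SE 0.11, adjusted p = 0.0398), and the call was lost without AZD2014 (0.105), BGT226 (0.455) or Omipalisib (0.591). GSK2110183 was at −0.38 and MK2206 at 0.30 at this element.

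Elements with the largest LPS rises gave no call. At Pfkfb3 +23.7 kb the LPS response was −0.83, −0.46, −0.91, −0.79 and −0.71 with the 5 PI3K/mTOR inhibitors, all below the mean of the others, and 1.45 and 1.30 with the AKT inhibitors MK2206 and GSK2110183, the highest of 58. The PI3K/mTOR difference of −0.76 (SE 0.27) missed the threshold (adjusted p = 0.143). At this element the UT level was −0.99 with MK2206 and −0.81 with GSK2110183 and 0.29 to 0.78 with the PI3K/mTOR inhibitors, and their part in the response was not tested. At the Slc2a6 promoter the response difference was −0.38 (adjusted p = 0.192), at Hif1a −24.8 kb 0.48 (0.485), at Hk1 +13.5 kb −0.05 (0.905) and at the Slc2a1 promoter −0.27 (0.47). At Slc2a1 +3.4 kb the IL-4 response differed by 0.08 (SE 0.19, adjusted p = 0.965). The difference in LPS level at the Pfkp promoter was −0.31 (adjusted p = 0.0821) and at the Ldha promoter −0.28 (0.0862).

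The elements of next smallest p in each measure missed the threshold. In UT they were the Pkm promoter (−0.25, adjusted p = 0.0587), Ldha −14.8 kb (0.36), Hif1a −20.2 kb (−0.55) and Pfkfb3 +18.3 kb (0.40). In level after LPS Ldha −12.1 kb was at 0.36 (adjusted p = 0.0687), and after IL-4 Hk2 +10.2 kb was at −0.38 and Hk2 +7.7 kb at −0.31. In the LPS response the CRE at the downstream Pfkfb3 start was at −0.47, the Pfkp promoter at −0.39 and Pfkfb3 +18.3 kb at −0.56. In the IL-4 response Pfkp +24.5 kb was at 0.61, Hk2 −6.8 kb at 0.50, Pfkfb3 +9.4 kb at −0.36, the downstream Pfkfb3 start at −0.29 and Hk2 −23.3 kb at −0.26, with adjusted p from 0.358 to 0.6.

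The last comparison set single CKIs against DMSO, over the UT libraries and all times of a stimulus together. CKIs were higher than DMSO at many weak elements, and the count depended on scaling. After LPS the 58 CKIs gave 871 calls over the 62 CREs, 711 of them higher, with backgrounds of 32.3% higher and 4.04% lower. With quantile scaling the calls were 118, of which 48 were higher (backgrounds 1.99% higher and 2.63% lower). Against the mean of all compounds they were 87, of which 41 were higher (1.26% and 1.52%). After IL-4 there were 1288 calls, 1210 higher (36.2% higher and 3.03% lower in the background). Quantile scaling left 196 with 117 higher (2.78% and 3.76%), and the mean of all compounds 106 with 77 higher (2.7% and 1.28%). Depth and contrast are lower in CKI libraries, and their part in these counts was not tested. A single compound had a median of 12.5 members higher and 2 lower after LPS, against medians of 34% and 3.46% of all CREs.

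AZD2014 stood apart downwards at 3 promoters over UT and LPS together. It was the lowest of 58 at the Pkm promoter (−0.81 against DMSO, SE 0.13, adjusted p = 1.1e-07), at the Hk2 promoter (−0.75, SE 0.17, adjusted p = 5.9e-05) and at the Ldha promoter (−0.54, SE 0.14, adjusted p = 0.00043). Against the mean of all compounds these were −0.51, −0.45 and −0.44. AZD2014 and Omipalisib share the column run with the fewest reads of 6, with a median of 893833 reads in CREs. Its median contrast of 11.2 is also the lowest. BGT226 stood apart upwards at Hk3 +4.1 kb, by 1.89 after LPS (SE 0.27, adjusted p = 9.6e-09) and 1.93 after IL-4 (SE 0.22, adjusted p = 1.3e-13), and at the Hk3 promoter by 0.80 after LPS (SE 0.14). Against the mean of all compounds the first 2 were 1.46 and 1.26. It was also higher at Ldha −12.1 kb after LPS (1.26, SE 0.21, adjusted p = 1.4e-06).

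Against the mean of all compounds after LPS, Omipalisib had 7 members higher and 3 lower, AZD2014 2 and 4, BGT226 4 and 0, PF04691502 0 and 2 and Apitolisib 0 and 0. After IL-4 the counts were 5 and 4 for Omipalisib, 4 and 3 for BGT226, 0 and 1 for PF04691502, and 0 and 0 for AZD2014 and Apitolisib. The median share of all CREs over the 58 CKIs was 0.0718% higher and 0.396% lower after LPS, and 0.143% and 0.568% after IL-4. Shares of the single compounds in this setting are not given, so their counts allow no reading about the members. Against DMSO after LPS, Omipalisib was higher at 47.5% and lower at 11.4% of all CREs, and AZD2014 at 40.2% and 13.2%. The medians over the 58 CKIs there were 34% and 3.46%, and all 5 PI3K/mTOR inhibitors lay above both. The p38 inhibitor PH797804 was lowest of 58 at the Slc2a6 promoter after LPS (−1.20) and at Pfkfb3 −22.4 kb (−0.86), and its 30 min LPS library is the shallowest of the series at 172611 reads. The Slc2a6 promoter after LPS was lower than DMSO with 23 CKIs (median −0.45), and with none under quantile scaling.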

How the data were processed

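H3K27ac ChIP-seq was analysed in 564 BMDM libraries. The authors took off adapters, cut the single-end reads to a common length, mapped these to mm10 with ShortStack, counted reads around ATAC-seq summits and scaled libraries by invariant peaks. Bowtie and SAMtools are named in the submitters' processing notes, without versions. The deposited values are rounded normalised read counts and were treated as a score, so no count model was used.

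Linear models of limma 3.58.1 (R 4.3.3) were fitted to log2(value + 5) over all CREs with a mean of at least 10, with Benjamini-Hochberg adjustment over all of them. CKI responses used compound as a block. PI3K/mTOR inhibitors were compared with other CKIs over 1 value per compound. Scripts were tested on simulated data. Every member is named, with its promoter CRE, its most changed CRE per stimulus and the 5 CREs of smallest p per inhibitor measure, plus the compounds highest or lowest there. Other CREs and compounds were named after their values were seen. Members and lists were chosen with earlier results of these data known. A gene of the pathway lists is counted but not reported by name here.

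Reads in CREs were estimated from the spacing of values, found in 549 libraries. The 36 libraries with the title suffix b were kept as further libraries of their group. DMSO replicate numbers did not pair: over 36 pairs of groups, deviations correlated between −0.087 and 0.066.

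Alternatives were other scalings, pseudocounts, filters, windows and thresholds, leaving out libraries or compounds, and run or contrast as covariates. A run is a block of compounds whose columns lie together in the deposited order, and no label names it. All RefSeq starts, and run with contrast, were added after seeing the data. Promoter sequences are from RefSeq (GRCm38.p6).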

Additional observations from a re-analysis of the deposited data

Results flagged for a closer look

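Hk2 +10.2 kb was flagged because Omipalisib lay far from the other PI3K/mTOR inhibitors in its level after IL-4. Its centred log2 level was −0.83, and its gap to the nearest of the other 4 was 0.726 of the range of the 5. This was 1 of 25 groups of 5 looked at, and chance flags about 1 in 20.

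Hk2 −23.3 kb was flagged because its response to LPS differed between PI3K/mTOR inhibitors and other CKIs in the test of the difference itself (−0.69, adjusted p = 0.016). AZD2014, Omipalisib and PF04691502 carried it at −0.98, −1.01 and −1.08, while Apitolisib and BGT226 lay at 0.04 and −0.08. The call was lost without AZD2014 (adjusted p = 0.0728), Omipalisib (0.193) or PF04691502 (0.111), and with contrast in the fit (0.0694).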

How the results depend on the processing

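Of 2051 values recomputed under other settings, 59 lost a call, 40 gained one in the same direction and no called value changed direction. The other 1952 kept their call or had none at first. A change of direction at a value not called was counted among these. The LPS count of 32 called CREs became 29 to 33 when leaving out 1 library. The IL-4 count of 5 became 17 at a size of 0.5, where the count over all CREs went from 11606 to 19669. It was 3 to 6 when leaving out 1 library (3 without the first UT library). The LPS against IL-4 count of 26 became 41 at a size of 0.5 (29544 to 36150 over all CREs) and 24 to 28 when leaving out 1 library. Within 10 kb the LPS and IL-4 counts were 14 and 2, out of a smaller set of member CREs. With the replicate number as a block, a pairing that the data do not bear out, the counts were 32, 5 and 26. With all RefSeq starts, models included, they were 33, 5 and 30, an alternative chosen after seeing the data.

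The PI3K/mTOR counts were small and moved with 1 compound or covariate. The UT level count of 1 was 0 without the b libraries, 0 with 9 inhibitors in the class, 2 with contrast, 2 with run and contrast together (chosen after seeing the data), and 0 to 2 when leaving out 1 compound. The LPS level count of 3 was 0 with contrast, 0 with 9 inhibitors and 0 to 6 when leaving out 1 compound. The IL-4 level count of 3 was 0 with 9 inhibitors, 5 with run and contrast and 0 to 4 when leaving out 1 compound. The LPS response count of 1 was 0 with contrast, 0 with 9 inhibitors, 0 with run and contrast and 0 to 1 when leaving out 1 compound. The IL-4 response count was 0 whichever compound was left out. The causes of these changes were not tested. Single CKI calls fell from 871 to 118 with quantile scaling and 87 against the mean of compounds after LPS, and from 1288 to 196 and 106 after IL-4. Over all CREs they fell from 1247728 to 158622 and 95513, and from 1345570 to 224399 and 136587. At shallow CKI libraries, differences at weak CREs may not be detectable.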

Other observations

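PH797804 and Talmapimod, both p38 inhibitors, were often the lowest or highest of the 58 CKIs at single elements, named here after their values were seen. Losmapimod and VX702 of the same class were seldom extreme, so nothing is read about p38 inhibitors as a class. With PH797804 the centred log2 level after LPS was lowest at Pfkfb3 −22.4 kb (−1.44), Hk3 +4.1 kb (−1.04), the Slc2a6 promoter (−0.87) and the Hk2 promoter (−0.57). With Talmapimod the UT level was highest at Slc2a6 −2.8 kb (1.61), Pfkfb3 −22.4 kb (1.31) and Slc2a1 +3.4 kb (1.10), and lowest at the Slc2a1 promoter (−1.09) and the Pfkp promoter (−0.80). X396, an ALK inhibitor, had the lowest UT level at Hk2 +7.7 kb (−1.91) and the highest responses there to LPS (1.57) and IL-4 (2.04). Most of these values rest on 1 library per time, were not tested, and share the UT library of the compound.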
